A study of Mus musculus with 8 samples.

Results

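The genes of the voltage-gated and potassium channels were taken as every gene symbol that begins with Kcn, Scn, Cacn or Hcn, ignoring case, in the RNA-seq tables of neonatal mouse hearts. This rule found 142 genes among 34275 distinct symbols, and where several loci carry 1 symbol the locus with the highest mean over the hearts was used. The hearts came from male mice of the Hsd:ICR(CD-1) outbred stock at postnatal day 1 (P1, n = 4) and postnatal day 7 (P7, n = 4), with no transgene and no treatment in either group, and 1 library was made from each heart. The atrial appendages were cut off before the hearts were frozen, so the libraries hold the remaining whole heart with its muscle cells, fibroblasts, vessels, nerves and blood. The values are FPKM, fragment counts divided by transcript length and by library size, so that levels can be compared between genes. Of the 142 genes, 69 reached 1 FPKM in at least 1 heart, 43 did so in every heart, and 73 stayed under 1 FPKM in all 8 hearts. Just inside this limit, the highest heart held 1.01 FPKM of Kcnj4 and 1.10 of Kcnip3, and just outside it, 0.985 of Scn2b and 0.945 of Scn3b. The name of 1 tested symbol, Scnm1-ps, goes against the label: its locus coincides with Scnm1, a splicing factor and not a channel, and it was kept because the rule names it.

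A heart beat is built from the currents of these channels. Sodium channels start the action potential, L-type calcium channels hold its plateau and trigger contraction, and T-type calcium channels and HCN channels take part in pacemaking. Potassium channels repolarize the cell and hold the resting potential, and each pore works with accessory subunits that set its amount at the membrane and its gating. In mice the heart rate rises and the action potential shortens in the first weeks after birth, and the channel subunits used by the fetal heart give way in part to those of the adult.

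The comparison of P7 with P1 asks how channel transcripts differ between the first day and the first week of life. Most of the measured channel genes did not pass the test, and almost all of those that did were higher in P7 hearts. A total of 17 of the 69 genes rose, 1 fell, and 51 did not pass. A gene was called where limma's p-value, adjusted over all 43172 loci tested, was under 0.05 and the ratio of mean FPKM was at least 1.5. The share called higher was 24.6% of the channel genes, against 7.74% of the 17960 tested loci that carry a gene symbol and 3.45% of all loci tested. Called lower were 1 of the 69 channel genes, 0.401% of the loci with a symbol and 0.371% of all loci. Higher calls also prevailed over the loci with a symbol, with 1390 higher and 72 lower. In either direction, 26.1% of the channel genes were called, beside 8.14% of the loci with a symbol and 3.82% of all loci tested. The median log2 fold change of the 69 genes was 0.31, with a range from -1.29 to 1.51, while the median of the loci with a symbol was 0.19. The log2 fold change was above 0 in 51 of the 69, and in 67.6% of loci with a symbol and 43.5% of all loci. In 24 channel genes, or 34.8%, the lowest P7 heart exceeded the highest P1 heart, against 17.3% of loci with a symbol and 8.5% of all loci. The opposite order, with all P7 hearts below, was seen in 2, Kcnq5 and Kcnab1, against 2.69% of loci with a symbol and 4.03% of all loci.

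**Figure D1:**
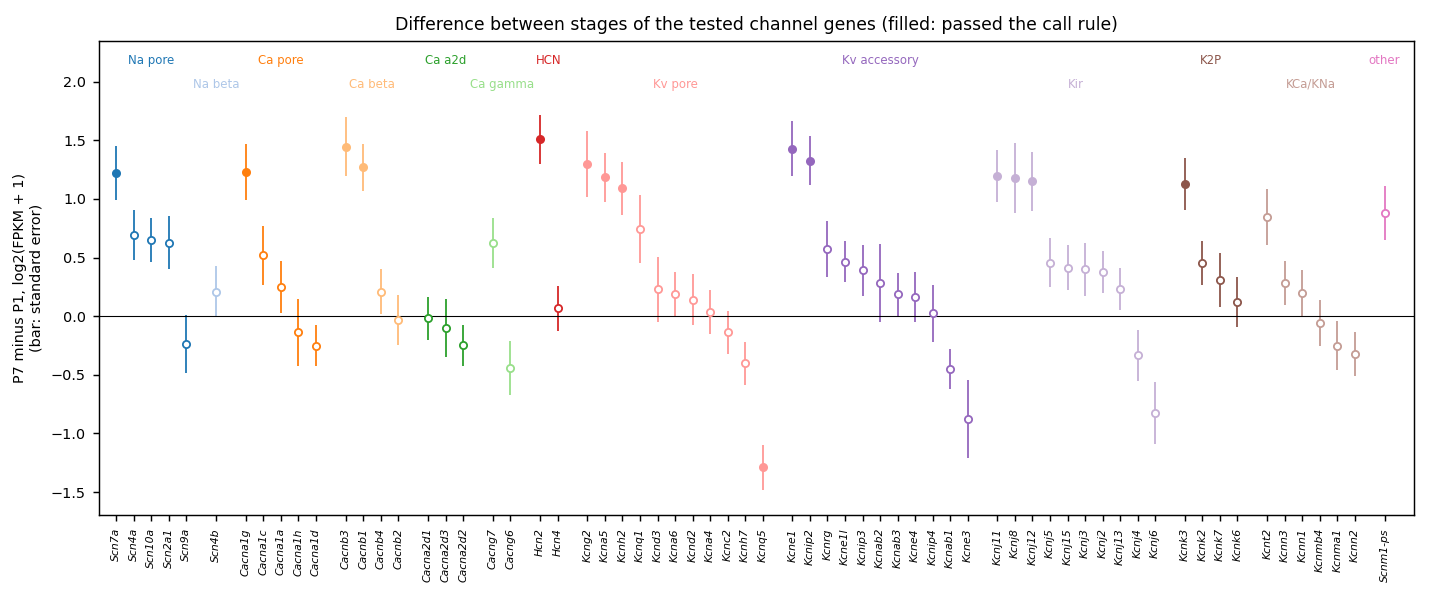
Difference between P7 and P1 hearts for 65 of the 69 tested channel genes, grouped by kind of subunit. The vertical axis is the difference in mean log2(FPKM + 1), bars are standard errors, and filled points are 15 of the 18 genes that passed the test. They lie between 1.09 and 1.51, except Kcnq5 at -1.29.

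The hearts of 1 stage differed from each other across most of these genes. P1 heart 4 held the highest P1 value in 42 of the 69 genes and P1 heart 3 the lowest in 40, and P7 heart 3 held the highest P7 value in 38. This order was not particular to channel genes. Over the loci with a symbol and above 0 in every heart, the median ratio to the other hearts was 1.16 in P1 heart 4 and 0.801 in P1 heart 3. These were the highest and lowest of P1, and P7 heart 3 was the highest of P7 at 1.27. The number called depended on which hearts were in the fit: it was 4 without P1 heart 2, 9 without P7 heart 1 or without P7 heart 3, 11 without P1 heart 3, 15 without P7 heart 2, 16 without P1 heart 1 or without P7 heart 4, and 24 without P1 heart 4. The count over loci with a symbol moved as well, from 1462 with all 8 hearts. It was 167 without P1 heart 2, 278 without P7 heart 3 and 298 without P7 heart 1. Without P1 heart 4 it was 2835. Hcn2, Kcnip2, Cacnb1 and Kcnq5 passed whichever heart was left out. Without P1 heart 2, the adjusted p of Cacnb3 was 0.0541 and that of Kcne1 0.0515, and both passed in the other 7 fits. A correction for transcript GC content, added once the data had been seen, left 8 channel genes called, among them Hcn2, Kcne1, Kcnip2, Scn7a, Kcna5 and Kcnq5, and Kcnt2, which had not been called before. The 11 genes no longer called, among them Cacnb1, Cacnb3, Cacna1g, Kcng2, Kcnh2, Kcnj8, Kcnj11, Kcnj12 and Kcnk3, stayed above 0, with log2 fold changes of 0.40 to 1.01 and adjusted p-values of 0.0622 to 0.309 after it. With that correction 422 loci with a symbol were called, against 1462 without it. Scaling each heart by its median ratio to the others moved the median log2 fold change of loci with a symbol from 0.19 to 0.0021 and that of the channel genes to 0.16. With it 19 channel genes were called higher and 3 lower, and the loci with a symbol split into 1388 higher and 621 lower instead of 1390 and 72.

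**Figure D2:**
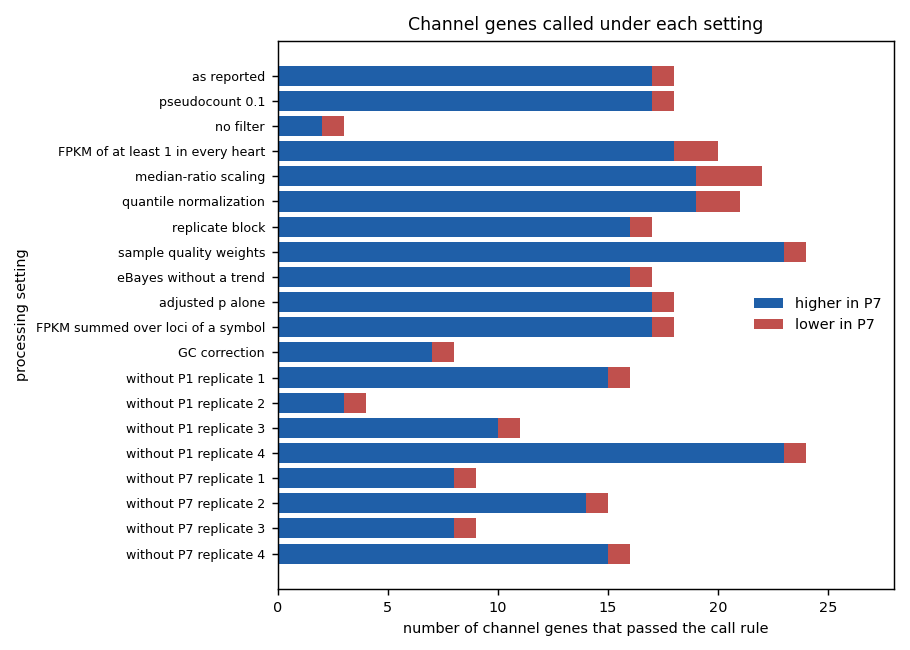
Number of channel genes that passed the test as reported and under each other setting, with those higher in P7 in blue and those lower in red. The count as reported is 18, the lowest are 3 with no filter on low loci and 4 without P1 heart 2 (replicate 2), and the highest is 24, with heart weights or without P1 heart 4.

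**Figure D3:**
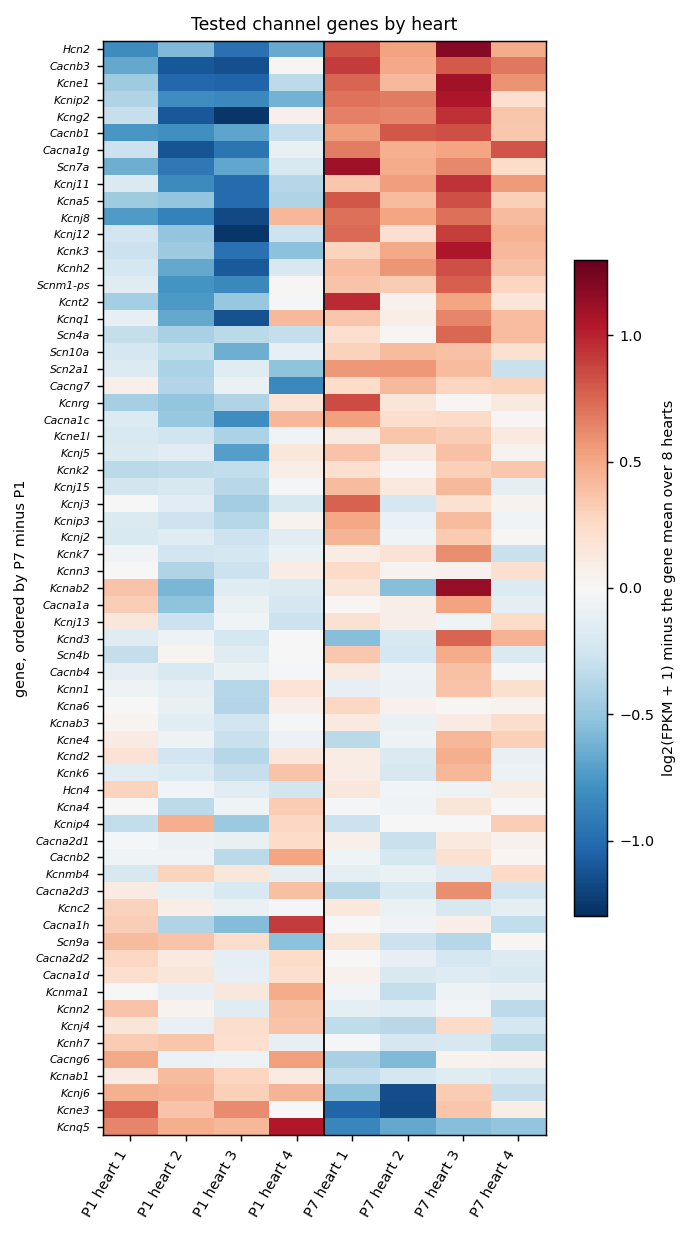
Values in each heart for 65 of the 69 tested channel genes, ordered from the largest increase to the largest decrease. Color is log2(FPKM + 1) minus the mean of the gene over the 8 hearts, and the vertical line separates P1 from P7. P1 heart 3 is the darkest blue of the P1 hearts for many genes at the top, and P1 heart 4 is closest to the P7 hearts in genes such as Kcnj8, at 8.17 FPKM.

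The markers of other cells in the heart were read beside these values. Of 7 cardiomyocyte markers, 5 atrial markers and 4 pacemaker markers none was called in either direction, and the summed pacemaker markers lay between 15.1 and 21.2 FPKM in P1 and between 15.5 and 20.6 in P7. Of 4 fibroblast markers 3 were called higher (sum 302 to 499 FPKM in P1, 706 to 825 in P7), of 4 pericyte markers 2 (sum 54.3 to 111 and 99.5 to 179), of 5 endothelial markers 2 and of 7 neuron markers 1. Among 5 skeletal muscle markers 1 was called lower (sum 3.23 to 5.79 and 0.747 to 1.23), and of 6 smooth muscle markers 1 was called in each direction. In RNA from a whole organ, a change in the number of cells of a type and a change in RNA per cell cannot be told apart, and the part of these markers in the results was not tested.

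The promoters of the 4 genes that passed whichever heart was left out are printed because these calls did not rest on any single heart. They were read from RefSeq on GRCm38.p6, from 250 bases before to 50 bases after the annotated start. A promoter was found for 103 of the 142 channel genes, 53 of them among the genes tested. They are written 5′ to 3′ on the gene's strand. Capitals mark the GC box GGGCGG and the nuclear receptor half-site AGGTCA, or their reverse complements on the other strand. The windows lie at chr10:79716384-79716683 on the plus strand for Hcn2, and on the minus strand at chr19:45816014-45816313 for Kcnip2, chr11:98022578-98022877 for Cacnb1 and chr1:21962601-21962900 for Kcnq5. The window of Cacnb1 lies inside the deposited locus, which extends to position 98030492, so it belongs to a start downstream of the locus's own 5′ end. The window of Kcnq5 lies wholly outside the deposited locus, which ends at position 21962530. It belongs to a start upstream of that locus's 5′ end and may not be the promoter of the measured transcripts.
Hcn2: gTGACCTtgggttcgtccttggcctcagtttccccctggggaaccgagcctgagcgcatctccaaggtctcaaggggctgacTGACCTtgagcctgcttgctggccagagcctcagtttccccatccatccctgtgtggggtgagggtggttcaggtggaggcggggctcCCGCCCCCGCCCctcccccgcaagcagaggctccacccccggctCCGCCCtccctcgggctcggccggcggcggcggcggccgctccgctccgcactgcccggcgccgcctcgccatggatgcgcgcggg
Kcnip2: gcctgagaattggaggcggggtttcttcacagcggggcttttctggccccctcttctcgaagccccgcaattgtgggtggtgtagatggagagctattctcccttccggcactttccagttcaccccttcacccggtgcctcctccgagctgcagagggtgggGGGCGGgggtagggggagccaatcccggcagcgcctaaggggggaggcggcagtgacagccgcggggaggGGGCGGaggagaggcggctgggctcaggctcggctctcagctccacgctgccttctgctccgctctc
Cacnb1: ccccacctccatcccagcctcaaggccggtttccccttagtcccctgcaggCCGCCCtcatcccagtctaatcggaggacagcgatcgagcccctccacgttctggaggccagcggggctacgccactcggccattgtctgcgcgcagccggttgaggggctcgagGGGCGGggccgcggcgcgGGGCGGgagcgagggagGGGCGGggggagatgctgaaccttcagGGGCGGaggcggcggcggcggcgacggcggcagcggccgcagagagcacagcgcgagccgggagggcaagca
Kcnq5: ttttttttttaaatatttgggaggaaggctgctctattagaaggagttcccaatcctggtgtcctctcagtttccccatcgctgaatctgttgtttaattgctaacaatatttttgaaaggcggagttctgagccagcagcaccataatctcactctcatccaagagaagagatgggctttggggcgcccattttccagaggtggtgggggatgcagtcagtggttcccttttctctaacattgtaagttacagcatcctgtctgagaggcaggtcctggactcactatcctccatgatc

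The window of Hcn2 held 3 GC boxes, at 80, 74 and 36 bases before the start, and 2 nuclear receptor half-sites. Kcnip2 held 2 GC boxes and Cacnb1 5, while the Kcnq5 window held neither motif. Over both strands, a GC box was in 28 of the 53 promoters of tested channel genes (52.8%), in 6 of the 9 promoters found for genes called higher (66.7%), and in 35.7% of all 32851 promoters of the table. The TATA box TATAAA was in 3 of the 53 (5.7%) and in 13.6% of all promoters. The GATA motif AGATAA was likewise in 3 of the 53, against 11.2% of all, and the nuclear receptor half-site in 2, against 16.3%. The MEF2 motif and the half-site TTCAGCACC of the repressor REST were in none of the 53, against 3.7% and 0.4% of all promoters. These are letter matches in a fixed window and no test was made on them.

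Among the sodium channels, 2 of 8 tested genes rose and none fell. Scn4b, the beta subunit linked to resurgent sodium current, had means under the 1 FPKM filter. It held 0.652 ± 0.178 FPKM in P1 and 0.949 ± 0.486 in P7 (mean ± SD, n = 4 each) and did not pass (adjusted p = 0.577). Scn7a, which encodes a sodium-sensing channel that is not opened by voltage, held 3.00, 2.26, 2.89 and 4.40 FPKM in P1 and 12.4, 7.71, 8.57 and 6.31 in P7. It rose 2.79-fold (adjusted p = 0.0176), and after the GC correction its log2 fold change was 1.51. The call was lost without P1 heart 2, P7 heart 1 or P7 heart 3 (adjusted p up to 0.0705). Of the 4 fibroblast markers, 3 rose as given above, and Pdgfra did not pass (adjusted p = 0.337). The part of fibroblasts in the Scn7a values was not tested. Scn4a, the skeletal muscle pore, went from 0.181 ± 0.0413 to 0.942 ± 0.434 FPKM with no overlap between the stages and did not pass (adjusted p = 0.102) except with heart weights. The skeletal muscle marker sum was lower in every P7 heart, which rests on Pvalb (3.66 ± 1.09 FPKM in P1, 0.454 ± 0.307 in P7), while Myog was at 0.321 ± 0.180 and 0.366 ± 0.142 and Myod1, Actn3 and Tnnc2 were under 0.3 in all hearts. Their part in the Scn4a values was not tested. Scn10a, a pore known from sensory and cardiac neurons, held 0.962 ± 0.297 FPKM in P1 and 2.05 ± 0.195 in P7, without overlap, and did not pass (adjusted p = 0.0778) except without P1 heart 4 (0.0359) or with heart weights. The brain pores Scn1a, Scn3a and Scn8a, the sensory pore Scn11a and the epithelial channel subunits Scnn1a, Scnn1b and Scnn1g did not reach 1 FPKM in any heart. The brain pore Scn2a1 did, with 0.761 ± 0.216 FPKM in P1 and 1.78 ± 0.683 in P7. So did the sensory pore Scn9a, with 0.941 ± 0.506 and 0.617 ± 0.279. Neither Scn2a1 nor Scn9a passed (adjusted p = 0.161 and 0.577). Scnm1-ps, the locus of the splicing factor, held 17.1 ± 5.35 FPKM in P1 and 31.6 ± 5.59 in P7 and did not pass (adjusted p = 0.0561), except without P1 heart 4 (0.0177) and under 4 of 11 other settings.

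For the L-type calcium channel the pores did not pass, and of the 4 beta subunits Cacnb1 and Cacnb3 rose while Cacnb2 and Cacnb4 did not pass. Cacna1c, the main pore, held 31.2, 25.0, 19.9 and 48.1 FPKM in P1 and 51.8, 41.8, 42.4 and 35.9 in P7. P1 heart 4 lay above 3 of the P7 hearts, and the log2 fold change of 0.52 ± 0.25 did not pass (adjusted p = 0.294). Without P1 heart 4 it was called (adjusted p = 0.0458). Cacna1d, the L-type pore of pacemaker and atrial cells, held 5.48 ± 0.663 FPKM in P1 and 4.44 ± 0.475 in P7 (adjusted p = 0.432), and a second locus of that symbol held less. Cacnb2, the most abundant beta subunit, held 35.2 ± 9.56 and 33.8 ± 4.28 FPKM (log2 fold change -0.03 ± 0.21). The sign of that small value changed under some settings.

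Cacnb3 held 2.91, 1.89, 1.81 and 5.29 FPKM in P1 and 10.7, 7.75, 9.81 and 8.98 in P7, and the groups did not overlap. It rose 3.12-fold (log2 fold change 1.44 ± 0.25, adjusted p = 0.0141), and did not pass with the GC correction (adjusted p = 0.0957). Cacnb1, the beta subunit of the skeletal muscle channel, held 1.08, 1.03, 1.19 and 1.85 FPKM in P1 and 4.13, 5.17, 5.29 and 3.47 in P7. It rose 3.50-fold (log2 fold change 1.27 ± 0.20, adjusted p = 0.00851) and did not pass with the GC correction (adjusted p = 0.0622). The noncoding gene Gm11629 lies antisense to its exons, so its reads would be counted with Cacnb1 if strand was not used. The deposited Cacnb1 locus also runs 7458 bases past the annotated gene, and Rpl19 and Gm27597 lie in its span. Their part in the Cacnb1 values was not tested. As a share of the 4 Cacnb genes, Cacnb2 was at 87.8, 90.7, 88.2 and 86.3% in P1 and 67.7, 68.2, 70.7 and 72.5% in P7. The difference of -18.5 percentage points gave an exact permutation p of 0.0286, the smallest that 4 against 4 hearts allow, and 0.0571 after adjustment over the 12 shares tested.

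The alpha2delta subunits, which bring calcium channels to the membrane, showed no call in 3 tested genes, and Cacna2d1 was at 29.1 ± 3.38 FPKM in P1 and 28.8 ± 3.64 in P7. The 2 tested gamma subunits, Cacng6 and Cacng7, were not called either. Cacna1s, the skeletal muscle pore, and the neuronal pores Cacna1b, Cacna1e, Cacna1f and Cacna1i did not reach 1 FPKM. The neuronal pore Cacna1a held 3.07 ± 0.999 FPKM in P1 and 3.81 ± 0.976 in P7 and did not pass (adjusted p = 0.515).

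The T-type calcium channels, which open at low voltage, differed between their 2 main genes. Cacna1g held 11.8, 6.11, 7.01 and 13.5 FPKM in P1 and 23.6, 20.3, 21.2 and 26.3 in P7, with no overlap, and rose 2.38-fold (log2 fold change 1.23 ± 0.24, adjusted p = 0.0201). The rise of Cacna1g did not pass without P1 heart 2, P1 heart 3, P7 heart 1 or P7 heart 3 (adjusted p up to 0.0770), nor with the GC correction (adjusted p = 0.108). Cacna1h held 5.36, 2.88, 2.44 and 8.53 FPKM in P1 and 4.05, 3.94, 4.41 and 3.08 in P7. Its P1 hearts spread over all 4 P7 values, and it did not pass (log2 fold change -0.14 ± 0.29, adjusted p = 0.782). Its sign turned to 0.14 without P1 heart 4. The share of Cacna1h in the sum of both genes was 31.3, 32.0, 25.8 and 38.7% in P1 and 14.7, 16.2, 17.2 and 10.5% in P7. Every P7 heart was below every P1 heart (difference -17.3 points, exact permutation p = 0.0286, adjusted 0.0571).

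Hcn2, at GRCm38 chr10:79716634-79736112, had the largest increase in mean log2(FPKM + 1) of the tested channel genes. By the ratio of mean FPKM, Scn4a, which was not called, was higher (5.20 against 4.98), and after the GC correction Scn7a, Kcne1 and Kcnt2 were higher (log2 fold changes 1.51, 1.27 and 1.13 against 1.06). This pore of the pacemaker current, opened by hyperpolarization and by cyclic AMP, held 0.801, 1.14, 0.627 and 1.01 FPKM in P1 and 4.63, 3.57, 6.22 and 3.45 in P7. The lowest P7 heart was well above the highest P1 heart, and Hcn2 rose 4.98-fold (log2 fold change 1.51 ± 0.21, adjusted p = 0.00568). On the log2(FPKM + 1) scale a gene this low shows less change than its ratio of means does. Hcn4, the leading HCN gene of the sinus node, held 1.71, 1.16, 0.997 and 0.873 FPKM in P1 and 1.45, 1.16, 1.11 and 1.37 in P7, and the stages overlapped (adjusted p = 0.843). Hcn4 went from 42.5 ± 8.36% of the 4 Hcn genes in P1 to 20.7 ± 4.79% in P7, with no overlap (exact permutation p = 0.0286, adjusted 0.0571). Hcn3 stayed under 1 FPKM.

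**Figure D4:**
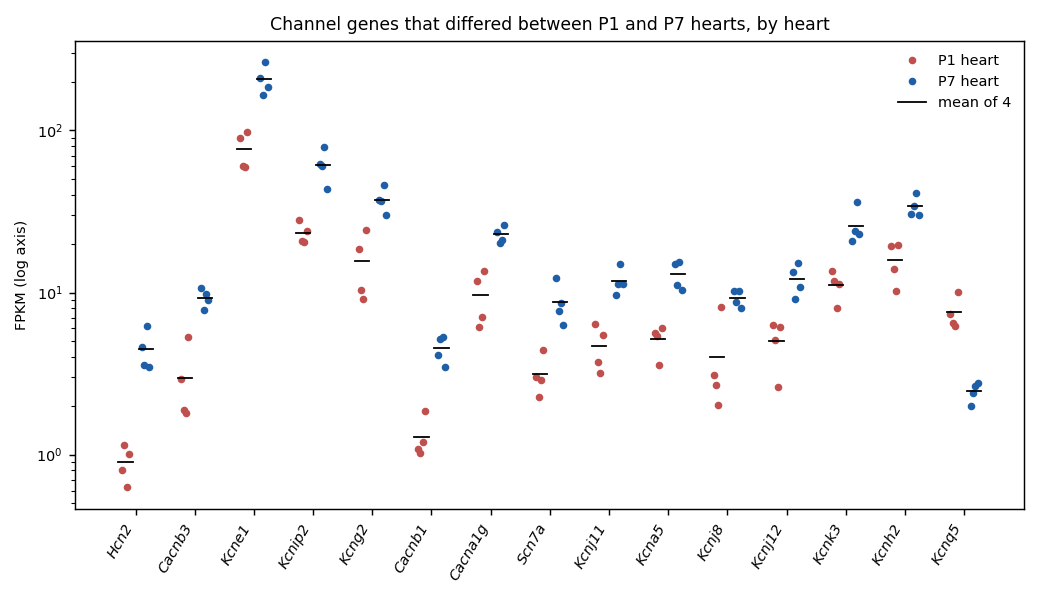
FPKM in each heart, on a log axis, for 15 of the 18 channel genes that passed the test, ordered by log2 fold change. Red points are P1 hearts, blue points P7 hearts and black lines the mean of 4. The stages separate in 14 of the 15, and for Kcnj8 the highest P1 heart, at 8.17 FPKM, lies above the lowest P7 heart, at 8.05.

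The transient outward current, which shapes early repolarization in the mouse ventricle, is carried by Kcnd2 and Kcnd3 with the accessory subunit Kcnip2. Kcnip2, also called KChIP2 and located at GRCm38 chr19:45791839-45816096, held 28.2, 20.8, 20.5 and 24.0 FPKM in P1 and 61.7, 60.2, 78.7 and 43.5 in P7. No heart of 1 stage reached the other, and it rose 2.61-fold (log2 fold change 1.33 ± 0.21, adjusted p = 0.00953). Kcnd2 held 1.47 ± 0.473 FPKM in P1 and 1.74 ± 0.584 in P7, and Kcnd3 0.488 ± 0.104 and 0.854 ± 0.744, and neither passed (adjusted p = 0.696 and 0.625). At the locus used, Kcnd3 spread from 0.0915 FPKM in P7 heart 1 to 1.72 in P7 heart 3. Another locus of that symbol spread less, with 0.526, 0.594, 0.585 and 0.555 FPKM in P1 and 0.709, 0.513, 0.681 and 0.428 in P7. The share of Kcnd2 given below uses the first of these Kcnd3 loci.

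Kcna4 and Kcna5 are pores of the Shaker family, Kcna4 of a slow transient outward current and Kcna5 of an ultrarapid delayed rectifier. Kcna5 held 5.66, 5.41, 3.58 and 6.02 FPKM in P1 and 15.1, 11.2, 15.4 and 10.3 in P7, and rose 2.52-fold (log2 fold change 1.18 ± 0.21, adjusted p = 0.0142), which was lost without P1 heart 2 or P7 heart 1 (adjusted p up to 0.0528). Kcna4 held 8.10 ± 1.74 FPKM in P1 and 8.24 ± 0.632 in P7 (adjusted p = 0.909). Kcna5 made up 41.2, 46.6, 31.7 and 36.6% of the pair in P1 and 65.6, 58.9, 62.7 and 56.2% in P7. The stages did not overlap, and the difference of 21.8 points gave an exact permutation p of 0.0286 (adjusted 0.0571).

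Kcng2, a silent subunit that assembles with Kcnb pores, held 18.7, 10.3, 9.09 and 24.4 FPKM in P1 and 37.2, 36.6, 45.9 and 30.1 in P7. It rose 2.39-fold (adjusted p = 0.0287) and passed only without P1 heart 1, P1 heart 4 or P7 heart 4 of the 8 fits that left out a heart, and not with the GC correction (adjusted p = 0.172).

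Kcne1, at GRCm38 chr16:92345453-92359468, was the most abundant of the 142 genes. It encodes the beta subunit that slows the Kcnq1 pore into the slow delayed rectifier current, and it held 89.6, 60.4, 59.6 and 97.5 FPKM in P1 and 209, 166, 264 and 186 in P7. All P7 hearts lay above all P1 hearts, and Kcne1 rose 2.69-fold (log2 fold change 1.43 ± 0.23, adjusted p = 0.0105). Kcnq1 held 13.2, 8.68, 6.01 and 19.6 FPKM in P1 and 18.8, 15.3, 22.9 and 19.4 in P7, and the stages overlapped (adjusted p = 0.196). Without P1 heart 4 Kcnq1 was called (adjusted p = 0.0293). The antisense RNA Kcnq1ot1 lies over Kcnq1, and reads of both could not be told apart if strand was not used. Kcne1 made up 87.2 ± 3.09% of the pair in P1 and 91.5 ± 0.628% in P7 (exact permutation p = 0.0571, adjusted 0.098).

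Kcnh2, the pore of the rapid delayed rectifier also known as ERG, held 19.3, 14.0, 10.2 and 19.6 FPKM in P1 and 30.3, 34.4, 41.4 and 30.0 in P7. It rose 2.16-fold (log2 fold change 1.09 ± 0.23, adjusted p = 0.0233). This call was lost without P1 heart 2, P1 heart 3, P7 heart 1 or P7 heart 3 (adjusted p up to 0.0879) and with the GC correction (adjusted p = 0.183). 

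Kcnq5 was the only channel gene called lower in P7 as reported. Under median-ratio scaling Kcnj6 and Kcnn2 were also called lower. This pore carries an M-type current that holds cells near rest in neurons and smooth muscle. It held 7.36, 6.45, 6.23 and 10.1 FPKM in P1 and 1.99, 2.39, 2.65 and 2.78 in P7, with a wide gap between the stages. P7 was at 0.326 of the P1 mean (log2 fold change -1.29 ± 0.19, adjusted p = 0.00774), and it was called without any 1 heart, in all 8 fits, and under all 11 other settings. The locus at GRCm38 chr1:21398128-21962530 has the noncoding gene Gm26580 antisense to its exons. Kcnab1, an accessory subunit of Shaker pores, held 2.79, 3.69, 3.29 and 2.79 FPKM in P1 and 1.82, 2.01, 2.17 and 2.07 in P7. Its hearts did not overlap at this locus, the highest of 3 that carry the symbol, yet it did not pass (log2 fold change -0.45 ± 0.17, adjusted p = 0.185). The second Kcnab1 locus held 2.18, 1.40, 2.03 and 2.48 FPKM in P1 and 2.06, 1.21, 2.04 and 2.46 in P7. The third held 0.660 to 2.02 FPKM in P1 and 0.536 to 0.886 in P7, so both overlapped between the stages.

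The rule found 40 Kv pores, of which 13 were tested, and 13 accessory subunits, of which 11 were tested. Of the tested genes, 5 pores and 2 accessory subunits rose and 1 pore fell. Kcne3, an accessory subunit that joins several Kv pores, held 3.63 ± 1.03 FPKM in P1 and 1.74 ± 1.40 in P7, and spread from 0.498 to 3.31 FPKM within P7 (adjusted p = 0.181). Of the genes with a known role in cardiac repolarization, the silent subunit Kcnv2 and the accessory subunit Kcne2 were among those under 1 FPKM in all hearts.

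The inward rectifiers hold the resting potential and pass little outward current. In all, 3 of 10 tested Kir genes rose and none fell. Kcnj2, the main pore of the cardiac inward rectifier current, held 18.4, 18.9, 17.4 and 19.2 FPKM in P1 and 29.2, 20.4, 27.2 and 21.4 in P7. All P7 hearts were above all P1 hearts by a small margin, and it did not pass (log2 fold change 0.38 ± 0.18, adjusted p = 0.288). Kcnj12, which forms channels together with Kcnj2, held 6.29, 5.07, 2.60 and 6.16 FPKM in P1 and 13.4, 9.11, 15.1 and 10.8 in P7 and rose 2.41-fold (log2 fold change 1.15 ± 0.25, adjusted p = 0.0282). It passed in 3 of the 8 fits that left out a heart, those without P1 heart 1, P1 heart 4 or P7 heart 2, and not with the GC correction (adjusted p = 0.124). The share of Kcnj2 in the sum of both was 79.0 ± 5.63% in P1 and 67.1 ± 2.21% in P7, with no overlap (exact permutation p = 0.0286, adjusted 0.0571).

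Kcnj8 and Kcnj11 encode the pores of ATP-sensitive potassium channels, Kcnj11 mainly in ventricular muscle and Kcnj8 mainly in vessels. Kcnj11 held 6.36, 3.72, 3.19 and 5.46 FPKM in P1 and 9.72, 11.2, 15.1 and 11.3 in P7, without overlap, and rose 2.52-fold (adjusted p = 0.0176), a call lost without P1 heart 2 or P7 heart 3 (adjusted p up to 0.0705) and with the GC correction (adjusted p = 0.0733). Kcnj8 held 3.09, 2.70, 2.01 and 8.17 FPKM in P1 and 10.2, 8.73, 10.2 and 8.05 in P7. P1 heart 4 was among the P7 hearts, and the call of Kcnj8 (2.32-fold, adjusted p = 0.0461) was lost without any heart other than P1 heart 4. The pericyte markers Pdgfrb and Notch3 also rose, while Rgs5 and Cspg4 did not pass (adjusted p = 0.101 and 0.201). P1 heart 4 held 14.5 FPKM of Pdgfrb against 4.78 to 7.35 in the other P1 hearts. For Notch3 it held 9.16 against 5.37 to 8.15. P1 heart 4 was also the highest P1 heart in 42 of the 69 channel genes. The part of pericytes in the Kcnj8 values was not tested. The share of Kcnj8 in the pair was 43.3 ± 11.7% in P1 and 44.2 ± 4.80% in P7 (exact permutation p = 0.857). Kcnj3 and Kcnj5, the pores of the acetylcholine-activated current of atrium and nodes, were at 14.3 ± 1.98 and 9.96 ± 2.58 FPKM in P1 and at 19.8 ± 6.39 and 13.8 ± 1.79 in P7, and neither passed (adjusted p = 0.354 and 0.27).

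Of 4 tested two-pore channels, which carry background potassium current, 1 rose. Kcnk3, also called TASK-1, held 13.6, 11.8, 8.08 and 11.3 FPKM in P1 and 20.7, 24.0, 36.0 and 22.8 in P7, a 2.31-fold rise (log2 fold change 1.13 ± 0.22, adjusted p = 0.0201). It did not pass without P1 heart 2, P1 heart 3 or P7 heart 3 (adjusted p up to 0.0667), nor with the GC correction (adjusted p = 0.125). Brown fat also uses Kcnk3, and its marker Ucp1 was at 10.3 FPKM in P7 heart 4 and 3.09 in P7 heart 2 and under 0.2 in the other hearts. The part of brown fat in the Kcnk3 values was not tested. Among the 6 tested calcium- and sodium-activated channels none was called. Kcnn2, a small-conductance channel, was the most abundant of them at 14.4 ± 2.72 FPKM in P1 and 11.2 ± 1.07 in P7 (adjusted p = 0.371). Kcnma1, the large-conductance channel of smooth muscle, had means under 1 FPKM, at 0.678 ± 0.316 in P1 and 0.395 ± 0.113 in P7.

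**Figure D5:**
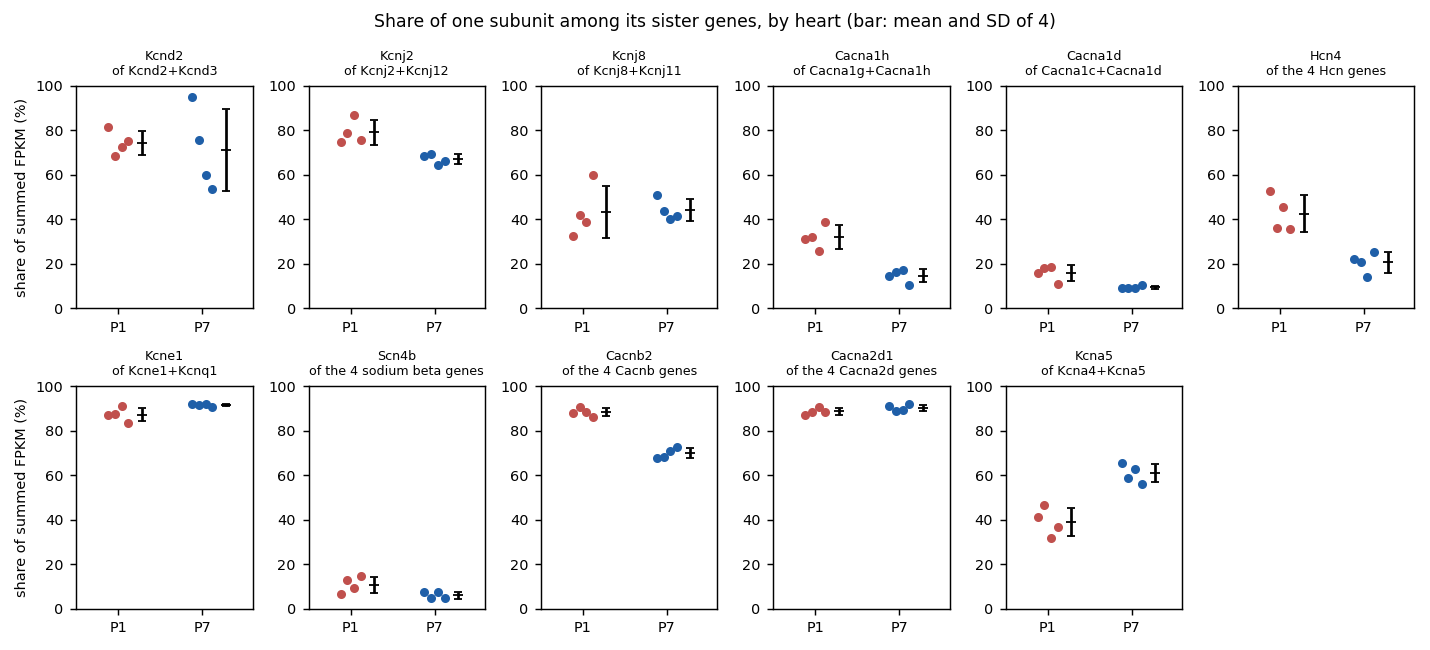
Share of 1 gene in the summed FPKM of its sister genes, in percent, in each heart for 11 of the 12 pairs or families compared. Red points are P1 hearts, blue points P7 hearts and bars the mean and SD of 4. In 6 panels the stages do not overlap: the shares of Hcn4, Cacnb2, Cacna1h, Kcnj2 and Cacna1d are lower in P7 and that of Kcna5 is higher.

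In 6 of the 12 subunit shares the stages did not overlap, each with the smallest exact p that the design allows (two-sided, 0.0286) and an adjusted p of 0.0571. Besides those given above, the share of Cacna1d in Cacna1c plus Cacna1d was 15.9 ± 3.54% in P1 and 9.42 ± 0.669% in P7 (difference -6.51 points). The shares of Kcnd2 in the Kcnd pair and of Cacna2d1 among the alpha2delta genes overlapped between stages (exact permutation p = 0.8 and 0.143). Where the FPKM of all loci of a symbol were summed, 7 shares had an adjusted p of 0.049, those 6 and the share of Kcne1.

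The genes that work with the channels but are not channels themselves were read in the same fit. Of 30 such genes 26 were tested, with a median log2 fold change of 0.28, against 0.19 for loci with a symbol. Of the 26, 6 were called higher (23.1%, against 7.74% of loci with a symbol) and none lower (against 0.401%). Among them were Abcc8, the sulfonylurea receptor SUR1 of ATP-sensitive channels, the calcium channel inhibitors Rem1 and Rrad, and Irx3 and Irx5, transcription factors that act on ventricular conduction and repolarization. Abcc8 lay between 2.53 and 6.64 FPKM in P1 and between 9.40 and 14.0 in P7 (2.45-fold, adjusted p = 0.023). The cardiac receptor Abcc9 was at 32.8 ± 8.79 and 34.2 ± 4.27 FPKM and did not pass (adjusted p = 0.812). None of the 6 passed without P1 heart 2, and 1 gene passed after the GC correction. Every P7 heart lay above every P1 heart in 8 of the 26 (30.8%, against 17.3% of loci with a symbol). The opposite order was seen in 3 of the 26, against 2.69% of loci with a symbol, though none of these was called.

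The 142 channel genes reached a total of 392 to 620 FPKM per P1 heart and of 743 to 1012 per P7 heart, and 0.0682 to 0.110% and 0.127 to 0.140% of all FPKM at loci with a symbol. The Kv accessory subunits, with Kcne1 and Kcnip2, summed to 94.8 to 138 FPKM in P1 and 240 to 364 in P7. The summed HCN channels went from 2.18 to 3.24 FPKM in P1 to between 5.38 and 7.88 in P7. The alpha2delta subunits overlapped between the stages, at 29.6 to 38.6 FPKM in P1 and 26.3 to 35.3 in P7.

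The 73 genes under 1 FPKM in all hearts were 27 of 40 Kv pores, 10 of 14 two-pore channels, 6 of 8 calcium channel gamma subunits, 6 of 12 calcium- and sodium-activated channel genes, 5 of 15 inward rectifiers, 5 of 10 calcium pores, 4 of 10 sodium pores and 10 genes of the other kinds. Many of them are known from neurons or skeletal muscle, such as Kcnc1 and Kcnq3 of neurons and Cacng1 of skeletal muscle. They were not tested, and a low FPKM in a whole organ does not show that a gene is silent in all its cells.

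Some channel genes may share their reads with other genes as far as the annotation shows. The Kcng2 locus runs 41365 bases beyond the annotated gene and spans Pqlc1. That of Kcna5 runs 166379 bases beyond its gene and spans Kcna1. The Cacna1d locus runs 66789 bases beyond its gene, with Chdh antisense to its exons and Dcp1a in its span. Tpsg1 lies antisense to exons of Cacna1h. Their part in the values and shares given above was not tested. The Kcnj13 locus spans Gigyf2, and its 9.37 ± 1.51 and 11.1 ± 1.07 FPKM may hold reads of that gene. Kcnj6 went from 13.6 ± 0.710 to 7.78 ± 3.68 FPKM without passing (adjusted p = 0.113). It was called lower where every heart had to reach 1 FPKM, with quantile normalization and with median-ratio scaling (log2 fold change -1.05, adjusted p = 0.0207). Its locus runs past the annotated gene and has an antisense transcript. Kcnk16 was listed at 0 in all 8 hearts. Kcnj13, Kcnj6 and Kcnk16 were named after their values were seen.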

How the data were processed

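RNA of 4 P1 and 4 P7 hearts was rRNA-depleted and made into paired-end libraries by the authors. Reads were aligned by a service provider to the GRCm38 genome, annotated with Ensembl release 70. The deposited unit is FPKM per locus. The aligner and the use of strand are not given in the sources used here. The files hold no counts, so the depth behind each value cannot be computed from them. From the smallest steps of the FPKM, 1 fragment was worth 0.779 to 1.27 times as much in each heart as in P7 heart 4, and 47 to 61 channel genes reached 1 FPKM per heart.

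Every locus that reached 1 FPKM in any heart was compared as log2(FPKM + 1), a pseudocount of 1, with limma 3.58.1 (lmFit and eBayes with a trend, R 4.3.3), all 8 hearts and no covariate, and Benjamini-Hochberg adjustment over the 43172 loci. Fold changes on this scale understate changes of low genes, and the folds printed are ratios of mean FPKM. The 12 subunit shares were compared with two-sided exact permutation tests over the 70 assignments and adjusted over the 12. Overlapping genes were read from GENCODE M21, promoters from RefSeq. Other steps used Python 3.11.15 with pandas 2.3.3 and numpy 2.4.6. The fit was tested on simulated data. The labels give each heart its own mouse identifier.

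The members and lists were chosen with earlier results of these data known. The genes named are those with a known role in a cardiac current, all called members, the 10 most abundant, the 5 largest increases and decreases without overlap, and called partners. Other genes were named after their values were seen. Alternatives tried were the pseudocount, the filter, the scaling, heart weights, the replicate block, the summing of loci, the GC content and each heart left out. Some genes that met these rules are not reported here and are left out of the plots, but count in the totals.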

Additional observations from a re-analysis of the deposited data

Results flagged for a closer look

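In 88 groups of 4 hearts, the highest or the lowest heart stood apart from the other 3 in 3 groups by Dixon's test. At 1 in 20, chance alone would give 4.4. Scnm1-ps was at 39.9 FPKM in P7 heart 3 and at 27.8 to 29.8 in the other P7 hearts, a gap of 0.838 of the range. Cacna1d was at 5.15 FPKM in P7 heart 1 and at 4.17 to 4.27 in the others (0.896). The share of Cacna1d in Cacna1c plus Cacna1d was 10.4% in P7 heart 4 and 9.05 to 9.14% in the other P7 hearts (0.93).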

How the results depend on the processing

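The calls depend on the FPKM scale, which holds no counts, on 4 hearts a stage and on the hearts in the fit. A change of the pseudocount to 0.1, adjusted p alone, summed loci and eBayes without a trend gave 17 or 18 called channel genes. With no filter on low loci 3 passed, 2 of them higher, and 231 loci with a symbol passed, against 1462 as reported. With 1 FPKM required in every heart 2 genes were lower, with median-ratio scaling 3, and with quantile normalization 2. The GC correction left 8, of which 7 were higher, and only 1 called partner, a higher one. Leaving out single hearts gave 4 to 24 called channel genes, 3 to 23 of them higher, and 0 to 9 partners, all higher. In the same fits 167 to 2835 loci with a symbol were called. Of the partners, 10 were called with median-ratio scaling, 3 of them lower, and 1 was lower where every heart had to reach 1 FPKM. The cause of these changes was not tested.

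Some small log2 fold changes of genes that were not called turned their sign. Heart weights gave 0.048 for Cacna2d1 and 0.033 for Cacnb2, and the GC correction 0.26 and 0.25. Hcn4 was at -0.071 with median-ratio scaling and at -0.33 with the GC correction, Kcnd2 at -0.0040 with median-ratio scaling, and Scn4b at -0.033 with the GC correction. Kcna4 was at -0.18 with median-ratio scaling and -0.22 with quantile normalization. Without single hearts the range was -0.35 to 0.14 for Cacna1h, -0.065 to 0.073 for Cacna2d1, -0.15 to 0.13 for Cacnb2, -0.0031 to 0.18 for Hcn4 and -0.067 to 0.15 for Kcna4.

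With loci of a symbol summed, 7 shares had an adjusted p of 0.049, with differences of -11.9 points for Kcnj2, -17.3 for Cacna1h, -9.11 for Cacna1d, -21.8 for Hcn4, 6.31 for Kcne1, -18.5 for Cacnb2 and 21.8 for Kcna5. Without single hearts the differences ran from -11.3 to 2.44 points for Kcnd2, -13.4 to -9.29 for Kcnj2, -2.67 to 6.41 for Kcnj8, -19.4 to -15.1 for Cacna1h, -8.17 to -5.65 for Cacna1d, -24.1 to -18.4 for Hcn4, 3.01 to 5.53 for Kcne1, -6.13 to -3.43 for Scn4b, -19.4 to -17.7 for Cacnb2 and 19.4 to 24.3 for Kcna5. The sign turned for Kcnd2 and Kcnj8.

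Deviations from the stage mean, over loci with a symbol, gave correlations of -0.0188, 0.122, -0.102 and -0.027 between same-numbered hearts. These values showed no pairing of hearts by replicate number across the stages, though a weak pairing could go unseen in them. With the replicate number as a block, 17 channel genes and 4 partners were called.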
